A study of Mus musculus with 7 samples.

Results

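The genes described here are those that hold the mammalian cell cycle back and those that p53 switches on or is held down by: Cdkn1a, Cdkn1b, Cdkn1c, Cdkn2a, Cdkn2b, Cdkn2c, Trp53, Mdm2, Ccng1 and Rb1. All probe sets annotated to these genes alone were taken, whatever their values. There were 16 such probe sets for 9 of the 10 genes, of 34945 probe sets with 1 gene each (18193 genes) on the array. Trp53 itself was not analysed here. The study reprogrammed mouse embryonic fibroblasts into hepatic stem cells. RNA was measured on Affymetrix whole-genome mouse arrays, and a level is a log2 value normalised by robust multi-array averaging (RMA), so that a difference of 1 is a 2-fold change. MEF, 4 arrays, were C57BL/6J embryonic fibroblasts grown in DMEM with serum. The induced hepatic stem cells, iHepSC, were 2 arrays, 1 at passage 3 (P3) and 1 at passage 20 (P20). They came from MEF infected with lentiviruses carrying Hnf4a and Oct4, both integrated, then moved to a hepatocyte medium (HEP medium) with nicotinamide, dexamethasone, HGF and EGF, and expanded on collagen from aggregates picked by hand. The study's detailed work was done with the clone iHepSC-C3, and the labels of the arrays name no clone, so both arrays may be passages of 1 line. The primary hepatocytes, pHep, were 1 array of cells from male C57BL/6J mice aged 6 weeks, freed by collagenase perfusion and kept in HEP medium. All groups shared the C57BL/6J strain (C57BL/6 in the strain label), but medium and cell type changed together between MEF and iHepSC and cannot be told apart. Nothing in the labels says that the 4 MEF arrays came from separate cultures, so the spread between them may be technical. The p-values measure only that spread and the difference between the P3 and P20 arrays, which is counted as noise.

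Cells divide when cyclin-dependent kinases phosphorylate the retinoblastoma protein, the product of Rb1, and release E2F transcription factors. The Ink4 proteins (from Cdkn2a, Cdkn2b and Cdkn2c) block the kinases Cdk4 and Cdk6, and the Cip/Kip proteins (from Cdkn1a, Cdkn1b and Cdkn1c) bind a broader set of cyclin and kinase pairs. Cdkn2a also encodes Arf in another reading frame from its own upstream start, and Arf binds Mdm2, the ubiquitin ligase that marks p53 for destruction. p53 in turn switches on Cdkn1a, Ccng1 and Mdm2, the last closing a feedback loop. In cultured mouse fibroblasts the Cdkn2a locus and p53 are well known for the arrest that ends the life span of a culture and for slowing reprogramming.

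Start regions of the inhibitor genes Cdkn1a, Cdkn2a and Cdkn2b, all highest on the first MEF array, are shown. The other windows, that of Mdm2 among them, were searched and are not printed. RefSeq gave windows for 7 of the 9 measured genes, 10 windows in all, each of the 250 bases before a transcription start in build GRCm38.p6. They are printed 5′ to 3′ in the direction of the gene. Capitals mark GGGCGG (the GC box), an E2F motif (TTTGGCGC, TTTCGCGC or TTTCCCGC), TATAAA, or both elements of a p53 response element, which lie at most 13 bases apart. All were searched on both strands with overlaps allowed, and the p53 element reads alike on each.
Cdkn1a, upstream start, chr17:29090729-29090978, + strand: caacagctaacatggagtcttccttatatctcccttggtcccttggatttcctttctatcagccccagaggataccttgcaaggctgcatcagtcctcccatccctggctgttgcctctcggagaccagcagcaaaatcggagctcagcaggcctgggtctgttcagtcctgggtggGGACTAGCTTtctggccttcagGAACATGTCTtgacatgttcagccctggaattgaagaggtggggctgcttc
Cdkn1a, downstream start, chr17:29093519-29093768, + strand: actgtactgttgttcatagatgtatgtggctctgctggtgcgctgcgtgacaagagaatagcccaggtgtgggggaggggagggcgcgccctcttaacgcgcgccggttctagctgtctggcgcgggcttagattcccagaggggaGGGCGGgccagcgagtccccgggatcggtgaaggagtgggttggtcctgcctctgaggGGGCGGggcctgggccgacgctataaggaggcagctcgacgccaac
Cdkn2a, upstream (Arf) start, chr4:89294620-89294869, - strand: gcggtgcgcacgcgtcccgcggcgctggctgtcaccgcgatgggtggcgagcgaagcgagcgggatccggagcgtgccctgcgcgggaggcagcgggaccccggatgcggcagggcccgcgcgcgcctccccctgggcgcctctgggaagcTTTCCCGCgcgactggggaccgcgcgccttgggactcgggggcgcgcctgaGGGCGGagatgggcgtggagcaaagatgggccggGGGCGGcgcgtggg
Cdkn2a, downstream (Ink4a) start, chr4:89282193-89282442, - strand: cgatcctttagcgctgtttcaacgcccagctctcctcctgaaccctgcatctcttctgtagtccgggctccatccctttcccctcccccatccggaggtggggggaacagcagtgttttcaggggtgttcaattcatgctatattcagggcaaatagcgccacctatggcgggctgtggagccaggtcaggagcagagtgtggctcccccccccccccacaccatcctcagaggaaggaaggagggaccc
Cdkn2b, chr4:89311033-89311282, - strand: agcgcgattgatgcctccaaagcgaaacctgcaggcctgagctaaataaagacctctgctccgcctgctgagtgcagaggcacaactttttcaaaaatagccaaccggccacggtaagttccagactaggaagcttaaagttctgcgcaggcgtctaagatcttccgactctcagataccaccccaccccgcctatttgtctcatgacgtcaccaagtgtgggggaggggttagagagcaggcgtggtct
The upstream Cdkn1a window held the only p53 response element match among the 10 windows, its elements separated by 12 bases and its end 41 bases before the start. The search was exact. The 10 bases directly after the second marked element differ from the element pattern only at their first base. They were therefore not marked, and a pair without a gap was left out. Of all 32851 RefSeq windows of this length, 0.0639% held such a match. The Arf window of Cdkn2a held 1 E2F motif, found in 1.53% of all windows, and 2 GC boxes, found in 32.7%. It also had 40 CpG dinucleotides, more than 98.7% of windows, against 7 in the Ink4a window, 12 in that of Cdkn2b and a median of 6 over all windows. The Cdkn2b and Ink4a windows held none of the motifs searched. TATAAA was in none of the member windows and in 12.4% of all windows. These are matches of letters in a window and not binding sites. The annotation used here does not say which Cdkn2a transcript the single Cdkn2a probe set reads, so its values cannot be assigned to Arf or Ink4a.

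MEF replicate 1 stood apart from MEF replicates 2 to 4, which bears on most of the results and is therefore given first. Replicates 2 to 4 correlated at 0.9967 to 0.9968 over all probe sets, and replicate 1 correlated with them at 0.9598 to 0.961. The mean level of 20 proliferation markers was 8.77 on replicate 1 and 11.09 to 11.19 on the other 3 arrays. Those of 9 fibroblast markers were 12.68 and 11.72 to 11.83, and those of 10 macrophage markers 7.44 and 6.45 to 6.6. The 9 fibroblast markers were each lower in iHepSC than in MEF, and 6 of 10 hepatocyte markers were higher (Alb, Ttr, Apoa1 and Apob, at 13.74 to 15.05 on both iHepSC arrays, and Fgb and Cps1, at 5.67 to 7.46). The other hepatocyte markers, Serpina1b, Tat, Cyp2e1 and Ass1, were at 4.91 to 6.43, and the mean of the 10 was 9.18 at P3 and 9.28 at P20. The pHep array carried high levels of the hepatocyte markers (mean 12.27), except Cyp2e1 and Ass1, which were at 5.11 and 5.14, and also of macrophage markers (mean 9.46, against 5.82 on each iHepSC array). Against MEF, 6 of those 10 passed the test as higher on that array (Csf1r, C1qa, C1qb, C1qc, Vsig4 and Marco, at 9.24 to 11.57), while Adgre1, Cd68 and Ptprc (7.23 to 9.18) did not pass the test and Clec4f, a Kupffer cell marker, was at 6.08, the lowest of the 7 arrays. Their part in the results below was not tested. In RNA of whole cultures, fewer cells of a type and less RNA per cell cannot be told apart.

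Of the 16 probe sets, 1 was higher in iHepSC than in MEF (background: 14.7% of all probe sets), 5 were lower (background 11.8%), and 10 did not pass the test (limma, adjusted p under 0.05 over all probe sets). The rise was in Cdkn1b, which encodes the inhibitor p27. The falls were in Cdkn1c, which encodes p57, in 1 of 3 Mdm2 probe sets and in all 3 Ccng1 probe sets. On pHep, 2 probe sets were higher than in MEF (background 14.7%), both of Cdkn1b, and 5 were lower (background 13.8%), of Cdkn1c, Mdm2 and Ccng1. Both comparisons share the MEF arrays. Between iHepSC and pHep, 1 probe set was higher in iHepSC (background 7.05%), of Rb1, and 1 was lower (background 8.03%), of Cdkn1b. The median difference over the 16 probe sets was -0.6 for iHepSC minus MEF, beside -0.01 over all probe sets, and -0.66 for pHep minus MEF, beside -0.13. With each array centred on its Gapdh probe sets in place of the RMA scale, every iHepSC minus MEF difference rose by 0.49, the median over all probe sets was 0.48, and 80.5% of all calls were higher in iHepSC, compared with 55.5% on the RMA scale.

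**Figure D1:**
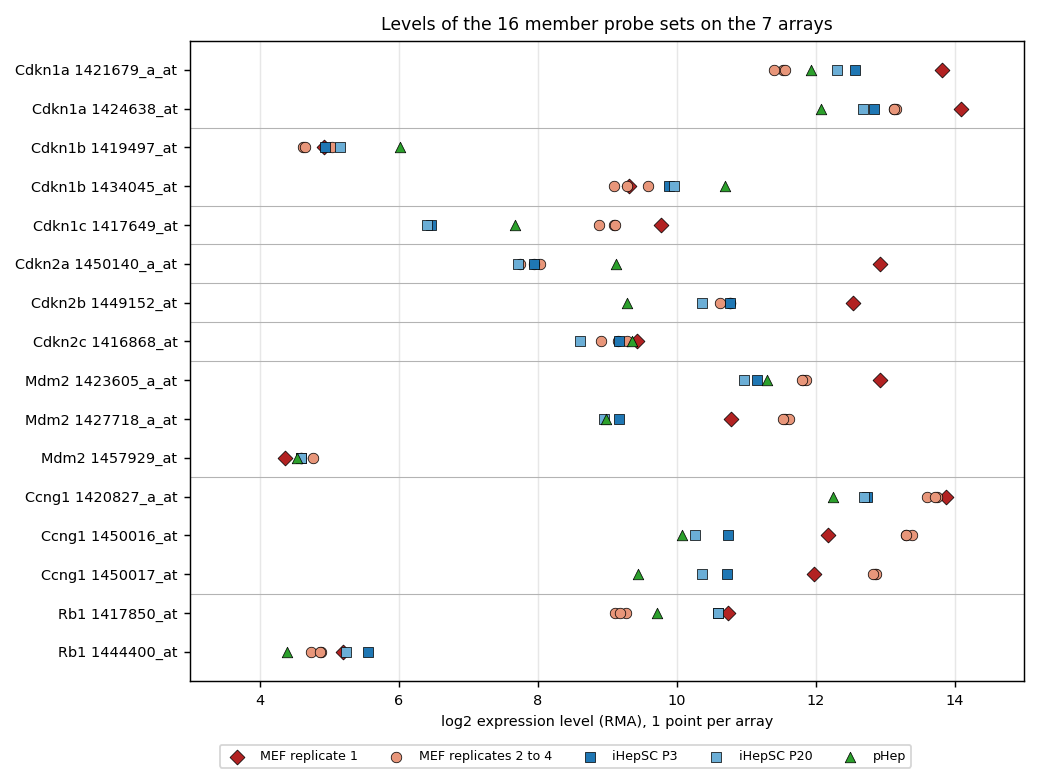
Log2 RMA level of each of the 16 probe sets (rows) on each of the 7 arrays (points), with MEF replicate 1 drawn apart from MEF replicates 2 to 4. Replicate 1 lies far to the right of the other MEF arrays for Cdkn1a, Cdkn2a, Cdkn2b, the first Mdm2 probe set and the first Rb1 probe set. It lies to their left for the second Mdm2 probe set and the last 2 Ccng1 probe sets.

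Without MEF replicate 1 the same fit called more: 4 probe sets higher and 7 lower in iHepSC than in MEF (background 27.2% and 26.8%), 5 higher and 9 lower on pHep than in MEF (26.0% and 32.1%), and 7 higher and 4 lower in iHepSC than on pHep (21.9% and 18.0%). That fit measures MEF by 3 arrays that scarcely differ, so its small p-values describe their closeness and that of the 2 iHepSC arrays. Values without that array are given below beside those with all arrays.

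Of the 16 probe sets, that of the Ink4 gene Cdkn2a had MEF replicate 1 furthest from the other MEF arrays. Cdkn2a (1450140_a_at) was at 12.93 on MEF replicate 1, and at 8.03, 7.94 and 7.75 on replicates 2 to 4. It was at 7.95 and 7.72 in iHepSC at P3 and P20, and at 9.13 on pHep. Replicate 1 was thus 32.5-fold above the mean of the other MEF arrays, which overlapped with iHepSC, and pHep lay between. Set against replicate 1, the iHepSC mean was lower by 5.09 on the log2 scale (-5.09). Set against replicates 2 to 4 the difference was -0.07, with an adjusted p of 0.652 in the limma fit without replicate 1. With all 4 MEF arrays the difference was -1.33 ± 1.54 (SE), with a 95% interval from -5.09 to 2.44 and a limma adjusted p of 0.582. Whether Cdkn2a differed between iHepSC and MEF therefore rested on which MEF array was the reference. For pHep the direction itself turned: the difference from MEF was -0.03 (limma adjusted p = 0.992) with all arrays and 1.23 (limma adjusted p = 3.07e-04) without replicate 1. The iHepSC minus pHep difference was -1.30, with a limma adjusted p of 0.765 with all arrays and 6.37e-04 without replicate 1.

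Cdkn2b, the neighbour of Cdkn2a on chromosome 4 and the source of the inhibitor p15, was likewise highest on MEF replicate 1, by less, but lowest on pHep. Its levels (1449152_at) were 12.53 on MEF replicate 1, 10.76, 10.77 and 10.62 on replicates 2 to 4, 10.77 and 10.37 in iHepSC at P3 and P20, and 9.28 on pHep. Replicate 1 was 3.52-fold above the other MEF arrays, and the P3 array lay level with those. The iHepSC minus MEF difference was -0.60 ± 0.57 (limma adjusted p = 0.499), and -0.14 (limma adjusted p = 0.393) without replicate 1. The pHep minus MEF difference was -1.89 (95% interval -3.69 to -0.09, limma adjusted p = 0.107), and -1.44 without replicate 1, where it passed the test (limma adjusted p = 2.29e-04). The iHepSC minus pHep difference was 1.29, with a limma adjusted p of 0.37 with all arrays and 0.00107 without replicate 1. Cdkn2c, which encodes p18, moved little. Its levels (1416868_at) were 9.43, 9.28, 8.91 and 9.16 in MEF, 9.17 and 8.61 in iHepSC, and 9.36 on pHep. The groups overlapped, apart from the P20 array, which was the lowest of all, and the iHepSC minus MEF difference was -0.30 with a 95% interval from -0.82 to 0.21.

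**Figure D2:**
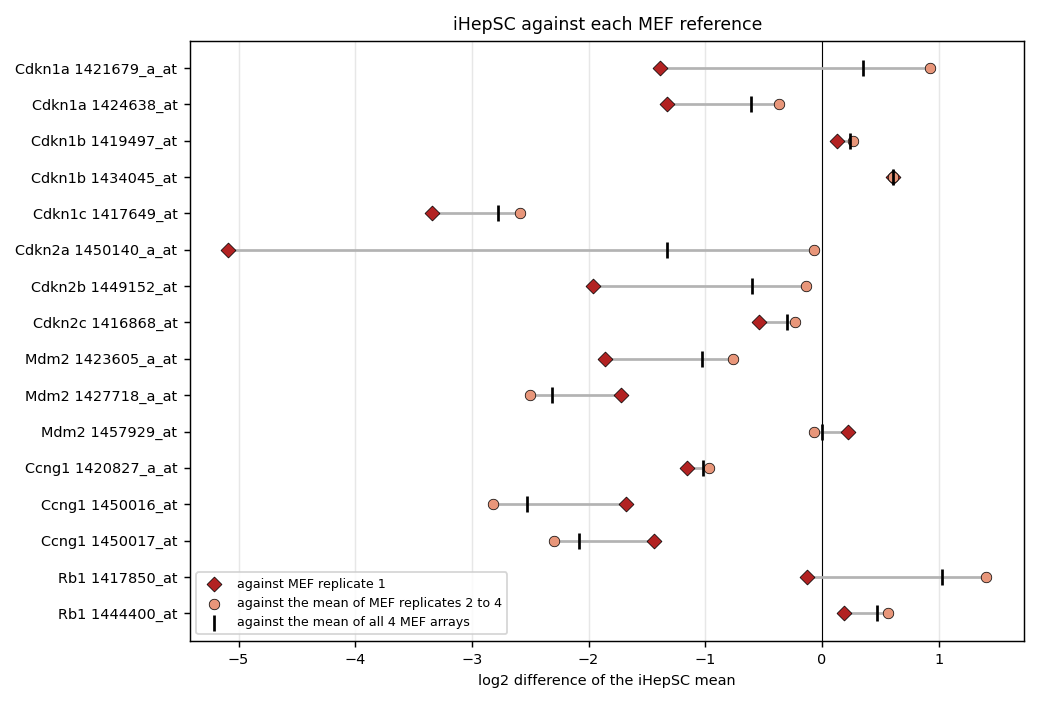
Mean log2 level of the 2 iHepSC arrays minus MEF replicate 1 (diamonds), minus the mean of MEF replicates 2 to 4 (circles) and minus the mean of all 4 MEF arrays (vertical bars), for each probe set. For Cdkn2a the difference runs from -5.09 to -0.07, and for 1 Cdkn1a probe set, 1 Rb1 probe set and 1 dim Mdm2 probe set it changes sign.

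Among the Cip/Kip genes, Cdkn1a, which encodes the p53-induced inhibitor p21, was read by 2 probe sets that gave opposite signs. On 1421679_a_at MEF replicate 1 was at 13.82 and replicates 2 to 4 at 11.53, 11.56 and 11.40, while iHepSC were at 12.56 and 12.31 and pHep was at 11.93. Both iHepSC arrays and pHep lay below replicate 1 and above replicates 2 to 4. On 1424638_at the MEF levels were 14.09, 13.12, 13.16 and 13.12, with iHepSC at 12.84 and 12.68 and pHep at 12.08. Here both iHepSC arrays and pHep lay below all 4 MEF arrays. The iHepSC minus MEF difference was 0.35 ± 0.72 (limma adjusted p = 0.762) for the first probe set and -0.61 ± 0.31 (limma adjusted p = 0.202) for the second. Without replicate 1 they became a rise of 0.93 (limma adjusted p = 2.29e-04) and a fall of 0.37 (-0.37, limma adjusted p = 0.00888), so the probe sets disagreed on direction while both passed. For pHep minus MEF they gave -0.14 and -1.29 with all arrays (limma adjusted p = 0.921 and 0.0563), and 0.44 and -1.05 without replicate 1 (0.0273 and 1.51e-04). The iHepSC minus pHep differences, 0.50 and 0.68, missed the threshold with all arrays (limma adjusted p = 0.811 and 0.377) and passed it without replicate 1 (limma adjusted p = 0.0306 and 0.0035). They agreed that replicate 1 was highest, 5.01-fold and 1.93-fold above the other MEF arrays, and that P20 was slightly below P3.

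Cdkn1b, the gene of p27, an inhibitor associated with quiescent cells, was highest on pHep. Its brighter probe set (1434045_at) was at 9.31, 9.09, 9.58 and 9.28 in MEF, 9.89 and 9.96 in iHepSC, and 10.70 on pHep. The groups did not overlap, and MEF replicate 1 lay among the other MEF arrays. The rise in iHepSC was 0.61 ± 0.15 (1.53-fold, limma adjusted p = 0.0305). It missed the threshold when MEF replicate 2 or 4 or either iHepSC array was left out, with limma adjusted p-values up to 0.185. On pHep it was 1.39 above MEF (2.62-fold, limma adjusted p = 0.00396). The second probe set (1419497_at) read near the floor of the array, at 4.62 to 5.04 in MEF, 4.94 and 5.15 in iHepSC, and 6.02 on pHep. It rose on pHep by 1.21 (limma adjusted p = 0.00784), and iHepSC and MEF overlapped. Cdkn1b was the one gene in this set for which an iHepSC minus pHep fall passed the test, on that second probe set (-0.98, limma adjusted p = 0.0356), beside -0.78 on the first (limma adjusted p = 0.0638, and 0.0173 without MEF replicate 1). That call was lost without MEF replicate 3 or 4 or either iHepSC array, with limma adjusted p-values up to 0.159.

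Cdkn1c, an imprinted gene and the source of p57, had the largest fall in iHepSC of the 16 probe sets when all MEF arrays were the reference. Levels (1417649_at) were 9.78, 9.10, 9.11 and 8.88 in MEF, 6.46 and 6.41 in iHepSC, and 7.67 on pHep. No group overlapped another, and MEF replicate 1 was the highest array. iHepSC were lower than MEF by 6.88-fold (-2.78 ± 0.25, limma adjusted p = 6.00e-04), and pHep by 2.92-fold (-1.55 ± 0.32, limma adjusted p = 0.0175). The iHepSC fall was -2.59 against replicates 2 to 4 and -3.34 against replicate 1. Against replicates 2 to 4 that of Ccng1 on 1450016_at was larger (-2.82). The iHepSC minus pHep difference was -1.24 (95% interval -2.11 to -0.37, limma adjusted p = 0.074), and without replicate 1 it was called lower (limma adjusted p = 3.53e-04).

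Mdm2 and Ccng1 are both p53 targets. Apart from 1 dim Mdm2 probe set, iHepSC and pHep lay below every MEF array, by an amount that depended on the probe set. Cdkn1c, and Cdkn1a on 1424638_at, shared that order. Mdm2 on 1423605_a_at was at 12.92 on MEF replicate 1, 11.81, 11.86 and 11.80 on replicates 2 to 4, 11.16 and 10.96 in iHepSC, and 11.30 on pHep. All 3 arrays that were not MEF lay below the MEF arrays. The iHepSC minus MEF difference was -1.03 ± 0.35 (limma adjusted p = 0.0798), and without replicate 1 it was -0.76 (limma adjusted p = 3.15e-04). For pHep minus MEF these were -0.79 (limma adjusted p = 0.23) and -0.52 (limma adjusted p = 0.00705). On 1427718_a_at the order within MEF was turned, with 10.78 on replicate 1 and 11.55, 11.61 and 11.53 on replicates 2 to 4, and iHepSC were at 9.17 and 8.95 and pHep at 8.98. There iHepSC were 4.95-fold lower than MEF (-2.31 ± 0.26, limma adjusted p = 0.0015) and pHep 5.23-fold lower (-2.39 ± 0.34, limma adjusted p = 0.00401). The third probe set, 1457929_at, stayed at 4.37 to 4.77 on all 7 arrays.

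Ccng1 encodes cyclin G1, which recruits a phosphatase to Mdm2, and it fell in iHepSC and on pHep on all 3 of its probe sets. On 1420827_a_at the MEF levels were 13.87, 13.60, 13.74 and 13.71, with iHepSC at 12.73 and 12.70 and pHep at 12.24. On 1450016_at they were 12.17, 13.29, 13.38 and 13.29, with 10.73, 10.26 and 10.08. On 1450017_at they were 11.98, 12.85, 12.86 and 12.82, with 10.72, 10.36 and 9.44. In each case every MEF array was above both iHepSC arrays, which were above pHep, but MEF replicate 1 was the highest MEF array on the first probe set and the lowest on the other 2. The iHepSC falls were -1.02 ± 0.11 (limma adjusted p = 0.00114), -2.53 ± 0.38 (0.00465) and -2.08 ± 0.29 (0.00352). The second missed the threshold without the P20 array (limma adjusted p = 0.0576), and the first was not called when arrays were centred on Gapdh (-0.53, limma adjusted p = 0.131). On pHep the falls were -1.49, -2.95 and -3.19, with limma adjusted p-values of 8.29e-04, 0.00736 and 0.00204. The iHepSC arrays lay above pHep by 0.47, 0.42 and 1.11, and none of these differences passed the test with all arrays (limma adjusted p from 0.102 to 0.682). The first and the last passed without MEF replicate 1 (limma adjusted p = 0.0155 and 0.00143).

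Thus the 2 probe sets of Mdm2 that carried signal, and the 3 of Ccng1, disagreed on the place of MEF replicate 1: it was 2.14-fold above and 1.72-fold below the other MEF arrays for Mdm2, and 1.14-fold above, 2.21-fold below and 1.82-fold below for Ccng1. Probe sets of a gene can read different transcripts. Which transcripts these read is not given in the sources used here.

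Rb1, whose protein the inhibitors keep active, was at 10.73 on MEF replicate 1, 9.11, 9.27 and 9.18 on replicates 2 to 4, 10.59 and 10.60 in iHepSC, and 9.72 on pHep (1417850_at). The iHepSC arrays were near replicate 1 and far above the other MEF arrays. With all MEF arrays the difference was 1.03 ± 0.48 (limma adjusted p = 0.177). Against replicates 2 to 4 it was 1.41, a rise that passed the test without replicate 1 (limma adjusted p = 8.97e-06), and against replicate 1 it was -0.13. The pHep minus MEF difference was 0.15 (limma adjusted p = 0.873) and 0.54 without replicate 1 (limma adjusted p = 0.00453). The iHepSC minus pHep difference was 0.87, with a limma adjusted p of 0.476 with all arrays and 0.00105 without replicate 1. The dim probe set 1444400_at was at 5.20, 4.74, 4.89 and 4.87 in MEF, 5.56 and 5.24 in iHepSC, and 4.40 on pHep. On this probe set both iHepSC arrays were highest and pHep lowest, and iHepSC exceeded pHep by 1.00 ± 0.24 (limma adjusted p = 0.0403). Its differences from MEF, 0.47 for iHepSC and -0.52 for pHep, missed the threshold with all arrays (limma adjusted p = 0.0909 and 0.121) and passed it without replicate 1, at 0.57 (limma adjusted p = 0.00483) and -0.43 (limma adjusted p = 0.0402). Leaving out any array other than MEF replicate 1 and pHep ended the call against pHep (limma adjusted p from 0.0658 to 0.167).

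**Figure D3:**
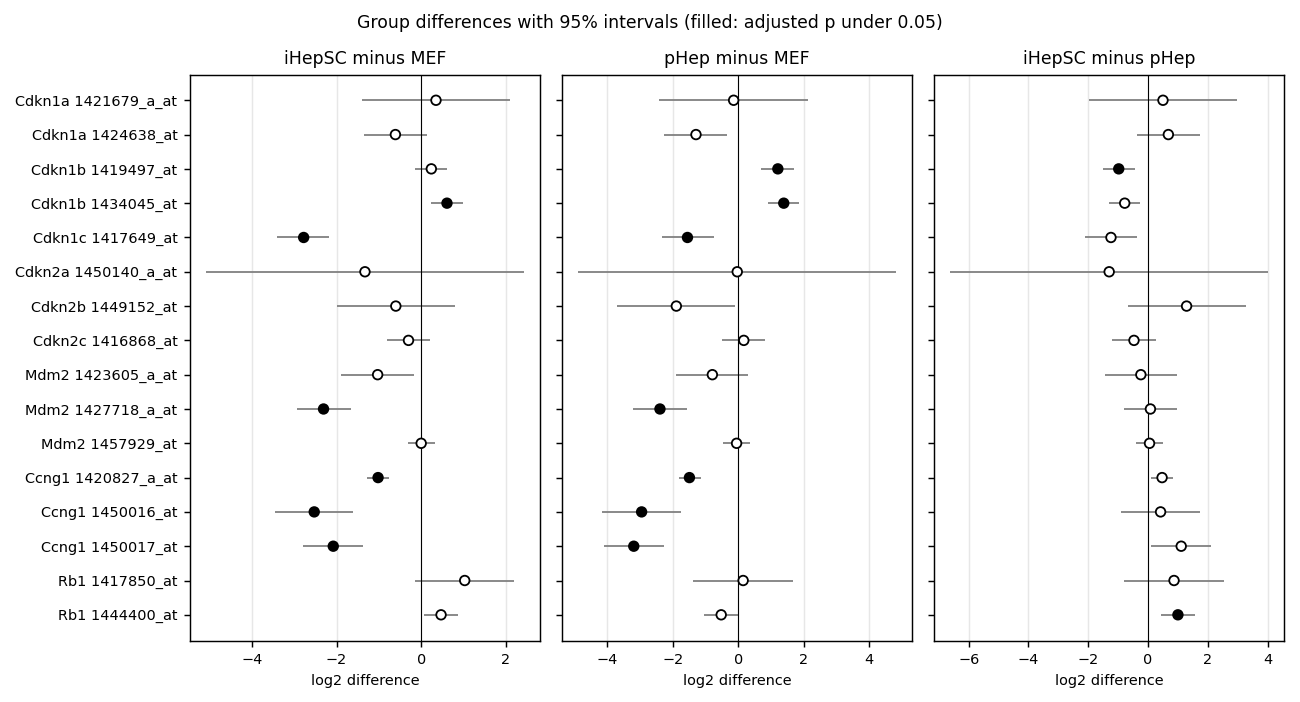
Log2 difference of each probe set in the 3 comparisons with its 95% interval from limma, all 7 arrays included (filled points have an adjusted p under 0.05). The intervals of Cdkn2a span from -5.09 to 2.44 for iHepSC minus MEF, whereas those of Cdkn1c and Ccng1 stay below 0 in both comparisons with MEF.

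Within MEF, replicate 1 was above all of replicates 2 to 4 on 10 of the 16 probe sets (background 42.2% of all probe sets) and below them on 4 (background 34.5%). By Dixon's test of a single far value, it stood far above the others on 6 (background 10.4%) and far below on 3 (background 9.62%). It was at least 2-fold above their mean on 5 (background 7.38%), those of Cdkn2a, Cdkn1a (1421679_a_at), Cdkn2b, Rb1 (1417850_at) and Mdm2 (1423605_a_at), and at least 2-fold below on 1 (background 6.22%), of Ccng1. Between passages, 12 of the 16 probe sets were lower at P20 than at P3 and 3 were higher (background lower: 47.6%). The P20 minus P3 differences were small, with a median of -0.21, beside 0.002 over all probe sets, whose SD was 0.239. The largest were -0.56 for Cdkn2c, -0.47 for Ccng1 (1450016_at) and -0.39 for Cdkn2b, and Cdkn2a differed by -0.23. With 1 array per passage there is no test of these differences. Both iHepSC arrays lay above all MEF arrays on 2 of the 16 probe sets (background 24.2%) and below all MEF arrays on 7 (background 23.4%).

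The wider pathway was read from 7 lists, each gene by its brightest probe set. Of 28 measured p53 targets outside the set above, 6 were higher in iHepSC than in MEF (background 17.3% of all genes), 6 were lower (background 12.7%) and 16 did not pass, with a median difference of 0.01, the same as over all genes. The largest rises were in Pmaip1 and Perp. Pmaip1, which encodes the death-promoting protein Noxa, was at 10.81 on MEF replicate 1, 7.65, 7.75 and 7.56 on replicates 2 to 4, 11.85 and 12.07 in iHepSC, and 12.07 on pHep. It was 11.4-fold higher in iHepSC than in MEF (limma adjusted p = 0.0439), and MEF replicate 1 stood between the groups. Perp, which encodes a membrane protein of desmosomes, was 5.54-fold higher (limma adjusted p = 0.0298). Both calls were kept without MEF replicate 1 but lost when any other MEF or iHepSC array was left out, with limma adjusted p-values up to 0.226. The largest falls were in Ak1, an adenylate kinase gene, 4.76-fold (limma adjusted p = 0.012), and in Plk2, a kinase gene, 3.3-fold (limma adjusted p = 1.59e-04). On pHep, 2 of the 28 were higher than in MEF (background 14.5%) and 6 lower (background 14.9%). Over all 34945 probe sets, 5133 were called higher and 4119 lower in iHepSC than in MEF with all arrays. Without MEF replicate 2, 3 or 4 these were 3699 to 3717 and 2874 to 2916, and without 1 iHepSC array they were fewer still. Counts with an array left out, here and in the lists below, are to be read beside that general loss. Without MEF replicate 1, 13 of the 28 were higher and 10 lower in iHepSC (background 30.6% and 24.4%). With any 1 other MEF array left out, 3 were higher and 4 or 5 lower, and with 1 iHepSC array left out, 2 or 3 were higher and 2 lower. Between iHepSC and pHep, 3 were higher in iHepSC (background 8.59%) and 2 lower (background 7.59%), and without MEF replicate 1 these were 9 and 9 (background 24.4% and 16.8%).

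On MEF replicate 1 itself, 23 of these 28 targets were above all of replicates 2 to 4 (background 47.6% of all genes) and 12 were at least 2-fold above their mean (background 8.26%). Gadd45a, a stress-response gene, was 5.67-fold above, Trp53inp1, which promotes p53 activity, 3.31-fold, and Phlda3, an inhibitor of Akt signalling, 2.49-fold. None of the 28 was 2-fold below, beside 3.73% of all genes. The 20 proliferation markers went the other way. All 20 were below all of replicates 2 to 4 (background 29.3%), and 19 were at least 2-fold below. Mki67, the gene of the Ki-67 antigen of dividing cells, was at 8.18 on replicate 1, 11.55, 11.36 and 11.57 on replicates 2 to 4, 10.07 and 9.19 in iHepSC at P3 and P20, and 8.78 on pHep. All 20 markers were also lower at P20 than at P3 (background 47.4%), by a median of 0.76 on the log2 scale (-0.76). With 1 array per passage this difference was not tested. The study itself measured similar doubling times for early and late passage cells.

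Differences in the proliferation markers between groups depended on that array. In the limma fit 0 of 20 passed between iHepSC and MEF (background 17.3% higher and 12.7% lower), with 2 lower at an unadjusted p under 0.05. The t-test named in the study's methods also gave 0. The median difference was -0.94. Without MEF replicate 1, 18 of 20 were lower in iHepSC than in MEF (background 24.4%), 20 of 20 were lower on pHep than in MEF (background 31.1%), and 15 were higher in iHepSC than on pHep (background 24.4%). The study measured a shorter doubling time for iHepSC-C3 than for its parental fibroblasts, and these markers do not measure doubling time. With all arrays, 1 of 20 (Rrm2, a ribonucleotide reductase subunit) was lower on pHep than in MEF (background 14.9%). Of 19 cyclin, kinase and related genes, 2 were higher (background 17.3%) and 2 lower (background 12.7%) in iHepSC than in MEF. Ccnd1, the gene of cyclin D1, rose 1.88-fold (limma adjusted p = 0.00367), from 12.41 to 12.65 in MEF to 13.58 and 13.28, and Cdc25a, a phosphatase that activates the kinases, rose 1.52-fold (limma adjusted p = 0.00529). Ccne1, the gene of cyclin E1, fell 2.99-fold (limma adjusted p = 0.00131), and Cdk4, the kinase that the Ink4 proteins block, fell 2.06-fold (limma adjusted p = 4.90e-04). The levels of Ccne1, Cdk4 and Cdc25a on MEF replicate 1 were within 0.43 of the mean of the other MEF arrays. Without MEF replicate 1, 14 of the 19 were lower (background 24.4%) and 3 higher (background 30.6%) in iHepSC.

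**Figure D4:**
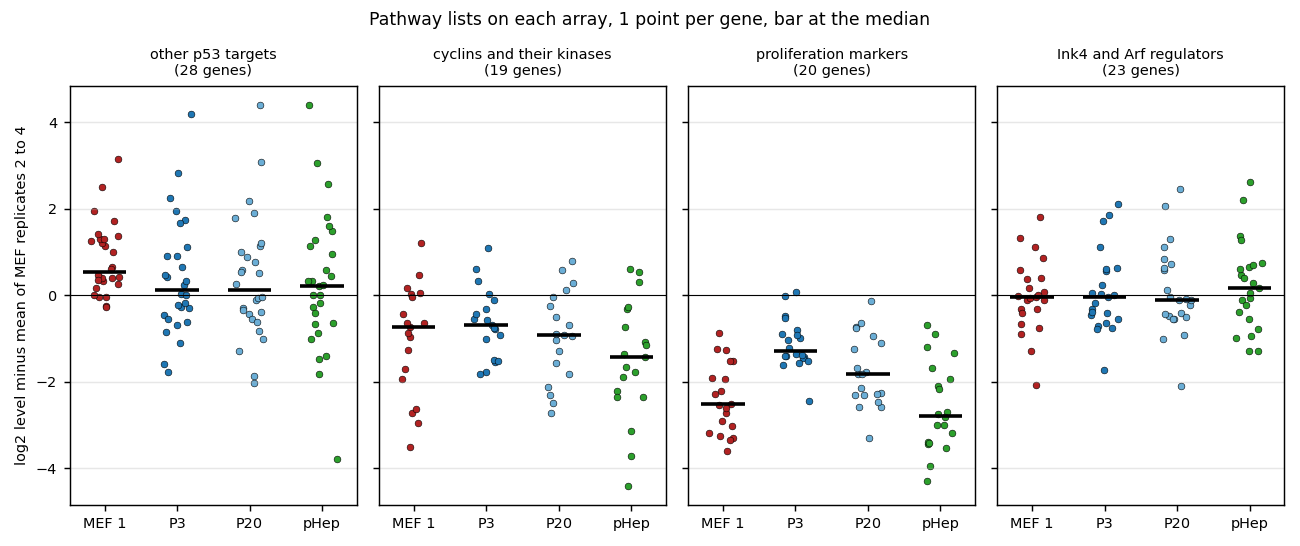
Log2 level minus the mean of MEF replicates 2 to 4 for each gene (points) of 4 lists, on MEF replicate 1, iHepSC at P3 and P20, and pHep, with a bar at the median. The proliferation markers on MEF replicate 1 are all below 0 (median -2.52), and 23 of the 28 p53 targets on that array are above all 3 other MEF arrays.

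Of 18 other inhibitors, pocket proteins and E2F partners, 3 rose (background 17.3%) and 2 fell (background 12.7%) in iHepSC, with a median of -0.33. Tfdp2, the gene of a dimerisation partner of E2F, rose 2.88-fold (limma adjusted p = 1.49e-04), and Rbl2, the gene of the Rb relative p130, rose 2.71-fold (limma adjusted p = 0.0177). E2f6, a repressor of the E2F family, fell 1.55-fold (limma adjusted p = 0.00365) and E2f3 fell 1.39-fold (limma adjusted p = 0.0137). Without MEF replicate 1 the falls in this list numbered 11 (background 24.4%), and the rises 3 (background 30.6%), and with 1 other MEF array or 1 iHepSC array left out the falls were 1 or 2 and the rises 1 to 3. Of 18 regulators and relatives of p53, 3 rose and 2 fell (background 17.3% and 12.7%). These counts were 6 and 5 without MEF replicate 1 (background 30.6% and 24.4%), and with 1 other MEF array or 1 iHepSC array left out 1 or 2 rose and 1 or 2 fell. Hipk2, a kinase that phosphorylates p53, was 6.22-fold higher in iHepSC (limma adjusted p = 1.80e-04), from 9.61 to 10.13 in MEF to 12.33 and 12.54, and 12.71 on pHep. Ep300, an acetyltransferase acting on p53, rose 1.7-fold (limma adjusted p = 0.0178). Trp53bp1, a DNA repair factor, fell 1.64-fold (limma adjusted p = 0.00216), and Rfwd2, a ubiquitin ligase of p53, fell 1.4-fold (limma adjusted p = 0.0124). None of these 4 was over 0.45 away from the mean of the other MEF arrays on replicate 1.

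Of 23 known regulators of the Cdkn2a and Cdkn2b locus, 6 rose (background 17.3%), 4 fell (background 12.7%) and 13 did not pass in iHepSC against MEF, with a median of -0.12. Leaving out MEF replicate 1 gave 8 that rose and 9 that fell (background 30.6% and 24.4%). With 1 other MEF array left out 4 or 5 rose and 2 or 3 fell, and with 1 iHepSC array left out 2 rose and at most 1 fell. Cbx7, a Polycomb protein that represses the locus, was at 6.44 to 6.82 in MEF, 8.47 and 9.07 in iHepSC, and 8.0 on pHep, a rise of 4.32-fold in iHepSC (limma adjusted p = 7.61e-04). Ets2, a transcription factor that activates Ink4a, rose 3.5-fold (limma adjusted p = 0.0127). Kdm2b, a histone demethylase that represses the locus, fell 3.03-fold (limma adjusted p = 0.0344), and Smarcb1, a chromatin remodelling subunit, fell 1.67-fold (limma adjusted p = 0.0154). On MEF replicate 1 the median difference of the list from replicates 2 to 4 was -0.03, with Kdm2b at -1.28 and Cbx7 at 0.17. Single genes moved further both ways, with Ezh2 at -2.07 and Tbx2 at 1.81. Of the 23, 3 were at least 2-fold above the mean of replicates 2 to 4 (background 8.26%) and 2 at least 2-fold below (background 3.73%).

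Of 15 measured senescence-associated genes, secreted factors for the most part, 2 rose (background 17.3%) and 2 fell (background 12.7%) in iHepSC, with a median of -0.06. When MEF replicate 1 was left out 5 rose and 5 fell (background 30.6% and 24.4%), and with 1 other MEF array or 1 iHepSC array left out 1 or 2 did in each direction. Mmp13, a collagenase gene, rose 33.9-fold (limma adjusted p = 1.42e-04), from 5.94 to 6.96 in MEF to 11.82 and 11.27, and was 4.32 on pHep. Il6, the gene of interleukin 6, fell 40.0-fold (limma adjusted p = 2.27e-05), from 9.24 to 9.93 in MEF to 4.10 and 4.17. Ccl2, a chemokine gene, rose 1.44-fold (limma adjusted p = 0.0158), and Plau, the gene of urokinase, fell 1.77-fold (limma adjusted p = 0.0214). On pHep 2 of the 15 rose (background 14.5%) and 6 fell (background 14.9%), with a median of -0.84. MEF replicate 1 was at least 2-fold above the mean of replicates 2 to 4 for 4 of the 15 (background 8.26%). It was at least 2-fold below for 1 (background 3.73%). Igfbp3 was furthest above, 16.2-fold, and Hmgb2 furthest below, 7.55-fold.

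Among the pathway genes named for a change in iHepSC against MEF, the calls of Plk2, Hipk2, Trp53bp1, Tfdp2, E2f6, Ccnd1, Cdc25a, Ccne1, Cdk4, Cbx7, Mmp13 and Il6 were kept with any 1 array left out. Those of Ak1, Ep300, Rfwd2, Rbl2, E2f3, Ets2, Kdm2b, Smarcb1, Ccl2 and Plau were lost without the P3 array and without the P20 array. The calls of Ep300 and Kdm2b were also lost without any 1 of MEF replicates 2 to 4, that of Rbl2 without replicate 2 or 3, that of Ccl2 without 2 or 4, and those of Smarcb1 and Plau without 3. Centred on Gapdh, the medians for iHepSC minus MEF became 0.50 for p53 targets, 0.49 for p53 regulators and relatives, 0.16 for inhibitors and E2F partners, 0.04 for cyclins and kinases, 0.37 for locus regulators, 0.43 for senescence-associated genes and -0.45 for proliferation markers. The sign turned for the inhibitor, cyclin, locus regulator and senescence lists. Every difference rose by the same 0.49 and the median over all probe sets was 0.48, so each list kept its place relative to all genes.

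The genes whose levels most resembled those of 4 members were found by Pearson's r over the 7 arrays, among 3563 genes with a range of at least 2, as a description of arrays that share groups. For Cdkn2a these were Tmem178 (0.992), Bpgm (0.988) and Notch3 (0.9787), each highest on MEF replicate 1. For Cdkn2b they were Phlda3 (0.9947), which is also among the p53 targets, Sh3rf3 (0.9946) and Pmm1 (0.9925). Cdkn1a, read by 1424638_at, was nearest to Pstpip1 (0.9944), C430002N11Rik (0.9904) and Cd80 (0.989), and Mdm2, read by 1423605_a_at, to Cacna1g (0.9974), Dysf (0.996) and 1700007K13Rik (0.9952). Tmem178 was at 8.72 on MEF replicate 1 and at 4.84 to 5.78 on the other 6 arrays, and so resembled Cdkn2a through 1 array.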

How the data were processed

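The authors deposited log2 expression values of 7 Affymetrix mouse arrays, normalised by them with RMA, whose software version is not given in the sources used here. Of 45101 probe sets, 64 were controls, 34958 had 1 gene symbol in the platform annotation, 932 had several and 9211 had none, and 34945 with 1 symbol that were not controls were tested. RMA gives all arrays nearly the same distribution (array medians 6.28 to 6.33), so a shift of all genes cannot be seen. Precision is set by how few arrays there are. limma 3.58.1 in R 4.3.3 fitted 1 model with a mean per group (lmFit, eBayes; 4 residual and 2.02 prior degrees of freedom), with Benjamini-Hochberg adjustment over the 34945 probe sets. pHep, with 1 array, was assumed to vary like the other groups. Intervals are at 95% and a value after ± beside a difference is its SE.

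Genes outside the set of 9 were each represented by the probe set of largest average level, since 9010 of 18193 genes had more than 1 probe set. All 16 probe sets of the set were named, of which 14 reached a level of 6 on at least 1 array. From each pathway list up to 2 largest rises and 2 largest falls in iHepSC against MEF past the test were named, and the 3 most alike genes for 4 members. Mki67 was named as a marker of division, and marker genes and genes given only for MEF replicate 1 were picked once their values had been seen. The genes, lists and tests were chosen with earlier results of these data known. A simulation of 34945 probe sets used independent noise, without an outlying array such as MEF replicate 1. Log2 changes of 1, 2 and 4 were given to 67, 67 and 66 of them. The test recovered 49.3%, 86.6% and 100% of these for iHepSC against MEF, and 10.4%, 82.1% and 95.5% for pHep against MEF. False calls were 6.55% and 3.85% of all calls. Alternatives were other scalings, filters, probe set summaries, a variance trend, a replicate block, the methods' unpaired two-tailed t-test, and each array left out. Promoter windows were taken from RefSeq (GRCm38.p6), with motifs searched by exact match. Python 3.11.15, pandas 2.3.3, numpy 2.4.6 and matplotlib 3.10.9 were used.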

Additional observations from a re-analysis of the deposited data

Results flagged for a closer look

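On 9 of the 16 probe sets, MEF replicate 1 lay so far from the other 3 MEF arrays that the gap to the nearest of them exceeded, as a share of the range of the 4 levels, the 95% limit of Dixon's test. Chance alone would pass that limit in about 1 group in 20, counting any of the 4 arrays, and 23.1% of all probe sets passed it for some MEF array. Replicate 1 had been set apart beforehand, and several of the 9 probe sets read the same gene on the same arrays. The count is thus a description and no test of that array. The gap was 0.932 of the range for Cdkn1a on 1421679_a_at and 0.954 on 1424638_at, 0.947 for Cdkn2a, 0.923 for Cdkn2b, 0.946 for Mdm2 on 1423605_a_at and 0.896 for Rb1 on 1417850_at, with replicate 1 as the high array in these 6 (background 10.4%). It was 0.904 for Mdm2 on 1427718_a_at, 0.928 for Ccng1 on 1450016_at and 0.958 for Ccng1 on 1450017_at, with replicate 1 as the low array in these 3 (background 9.62%).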

How the results depend on the processing

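The reported counts were 1 higher and 5 lower (iHepSC against MEF), 2 higher and 5 lower (pHep against MEF) and 1 higher and 1 lower (iHepSC against pHep). Leaving out 1 array at a time gave 0 to 4 higher and 4 to 7 lower, 2 to 5 higher and 5 to 9 lower, and 0 to 7 higher and 0 to 4 lower, the highest of each without MEF replicate 1. Over all probe sets too, calls in each comparison fell when any array other than MEF replicate 1 or pHep was left out. With Gapdh centring iHepSC against MEF had 2 higher, and iHepSC against pHep 0 lower. With a further quantile normalisation iHepSC had 0 higher than MEF and 0 higher than pHep. With the filter on dim probe sets 0 were higher than pHep. With the mean of the probe sets per gene (9 genes) there were 3 lower for iHepSC against MEF, 1 higher and 3 lower for pHep against MEF, and 0 higher for iHepSC against pHep. With 1 probe set per gene these were 2 lower, 1 higher and 2 lower, and 0 higher and 0 lower. The methods' t-test after Benjamini-Hochberg adjustment gave 0 higher for iHepSC against MEF, where the limma fit had 2 higher at an unadjusted p under 0.05. Same-numbered replicates of MEF and iHepSC did not deviate together (correlations of -0.22 and -0.193). A replicate block left 1 residual degree of freedom and gave 0 higher and 1 lower, 0 and 0, and 0 and 0.

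Single differences that changed sign were as follows. Under the replicate block they were Cdkn1a 1421679_a_at (-0.25, iHepSC minus MEF), Cdkn2c (-0.17), Mdm2 1457929_at (0.11) and Rb1 1417850_at (-0.60) for pHep minus MEF, and Mdm2 1423605_a_at (0.09), 1427718_a_at (-0.06) and 1457929_at (-0.0076) for iHepSC minus pHep. Under Gapdh centring they were Cdkn2c (0.19, iHepSC minus MEF), Cdkn2a (0.0017, pHep minus MEF) and Mdm2 1423605_a_at (0.22, iHepSC minus pHep). Under quantile normalisation it was Mdm2 1457929_at (0.03 for pHep minus MEF, -0.02 for iHepSC minus pHep), and with the mean of its probe sets Rb1 1417850_at (-0.19, pHep minus MEF). With 1 array left out at a time, iHepSC minus MEF ran from -0.07 to 0.06 for Mdm2 1457929_at, pHep minus MEF from -0.37 to 0.44 for Cdkn1a 1421679_a_at, -0.50 to 1.23 for Cdkn2a, -0.12 to 0.01 for Mdm2 1457929_at and -0.0026 to 0.54 for Rb1 1417850_at, and iHepSC minus pHep from -0.03 to 0.19 for Mdm2 1427718_a_at. The positive end for Cdkn1a and Cdkn2a, 0.44 and 1.23, was without MEF replicate 1. The cause was not tested.

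The Cdkn1b 1434045_at rise in iHepSC was also lost under quantile normalisation (limma adjusted p = 0.0721). Gapdh centring ended the pHep fall of Cdkn1c (limma adjusted p = 0.0631), and moved the share of higher calls for iHepSC against pHep from 46.8% to 69.2% over all probe sets. The Cdkn1a 1424638_at fall on pHep was called with a variance trend, the filter on dim probe sets and quantile normalisation (limma adjusted p = 0.0483, 0.0496 and 0.0498), as it was without MEF replicate 1. Levels near 5, as for Mdm2 1457929_at, Rb1 1444400_at and Cdkn1b 1419497_at, are close to the lowest values on the arrays (3.01 to 3.19), where differences are compressed.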
